A study of Mus musculus with 8 samples.

Results

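10 well-known long noncoding RNAs that lie away from the miR-29ab1 locus were followed in crypts of the mouse small intestine: Malat1, Neat1, Gas5, Snhg1, Snhg12, Kcnq1ot1, Epb41l4aos, Dleu2, H19 and Meg3. They were picked by name as nuclear RNAs, imprinted RNAs and hosts of small RNAs, with earlier results of these data known. Each matched 1 row of the 55880 genes in the deposited table, which lists 9959 genes with a lncRNA biotype. The study set 4 libraries labelled miR-29ab1-/- against 4 libraries labelled WT, all from C57BL/6N mice before irradiation, and its title names intestinal stem cell fate and energy metabolism from fatty acid oxidation as the question. The labels give no age, litter, day or batch and do not say how the deletion was made, so p-values measure only the spread between these 8 libraries, which may in part be technical. Depth ran from 13879472 to 17368666 counts per library.

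Long noncoding RNAs work without being translated. Malat1 and Neat1 stay in the nucleus, Malat1 in the splicing-factor domains called nuclear speckles and Neat1 as the scaffold of paraspeckles. Hosts of small nucleolar RNAs (snoRNAs) carry the snoRNAs in their introns, while their spliced exons are often destroyed quickly by nonsense-mediated decay. Kcnq1ot1, H19 and Meg3 come from imprinted loci, where only 1 parental copy is read, and H19 and Meg3 are known for high levels in the fetus and low levels in most adult tissues.

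The labels were first set against the targeted locus. Mir29b-1 had 2, 5, 7 and 3 counts in labelled knockout replicates 1 to 4, against 0 in each wild-type library. Mir29a had 0 counts in every library, and its neighbour Gm27019 had 227 to 327 counts in the labelled knockout libraries, against 0 in each wild-type library. Lncpint, nearby on the same strand, had 1831 to 2608 counts in the labelled knockout libraries, against 11 to 16 in the wild-type libraries. Mir29b-1 and Gm27019 overlap at their edges on the same strand, and how reads there were assigned is not known from the labels. Counts assigned to a deleted hairpin go against the label taken at face value, so the groups are called labelled knockout and wild type throughout. Lgr5 and Olfm4 of the crypt stem cells and Lyz1 of Paneth cells were present in all libraries. The 5 endothelial markers together reached no more than 2.74 CPM (counts per 1e+06, on TMM library sizes), and Emcn was at 0. The 10 stem cell markers summed to 1590 to 4040 CPM in labelled knockout, against 2530 to 4390 CPM in wild type. Stroma and smooth muscle markers summed to 14.4 to 25.9 CPM in labelled knockout, against 11.6 to 68.5 CPM in wild type. The 5 red blood cell markers summed to 8.9 to 55.1 CPM in labelled knockout, against 2.69 to 15 CPM in wild type. Immune markers were present in every library. The 7 T cell markers summed to 88.8 to 192 CPM in the labelled knockout libraries, against 114 to 327 CPM in wild type, with 7 of 7 below 0, a median log2 fold change of -0.44 and -0.11 without wild-type replicate 1. The 6 B and plasma cell markers summed to 26.2 to 63.3 CPM in the labelled knockout libraries, against 28.5 to 176 CPM in wild type, with 6 of 6 below 0 and a median of -0.90 that was 0.17 without wild-type replicate 2. Myeloid markers summed to 34.8 to 55.4 CPM in the labelled knockout libraries, against 46.0 to 79.4 CPM in wild type, with 5 of 5 tested below 0 and a median of -0.37 that was -0.033 without wild-type replicate 2. Labelled knockout replicate 4 stood apart. It held the lowest CPM of the 8 libraries for 29.1% of the 14897 genes tested and the highest for 26.9%. Its 11 enterocyte markers summed to 70000 CPM where labelled knockout replicates 1 to 3 had 13200 to 30400 CPM, against 16400 to 30500 CPM in the wild-type libraries. Its 12 proliferation markers summed to 630 CPM where labelled knockout replicates 1 to 3 had 995 to 1510 CPM, against 1110 to 1550 CPM in the wild-type libraries. All 12 proliferation markers lay below 0, with a median log2 fold change of -0.32 that was -0.12 without that library. The 10 Paneth markers, all present, summed to 44600, 61100, 36000 and 20500 CPM in labelled knockout replicates 1 to 4, against 22000 to 27900 CPM in the wild-type libraries, with 10 of 10 above 0 and a median log2 fold change of 0.46. None of the markers in any of these lists passed the edgeR test. The part of these differences in the results was not tested. In bulk crypts, fewer cells of a type and less RNA per cell cannot be told apart.

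The microRNAs of the targeted locus share one seed, and their sequences (RefSeq, GRCm38.p6) are shown with the sites that the longest of these RNAs hold. Capitals mark the seed, bases 2 to 8, in each microRNA, and the letters that pair with it in each site.
mmu-miR-29a-3p, chr6:31062673-31062694, minus strand: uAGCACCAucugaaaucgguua
mmu-miR-29b-3p, chr6:31063025-31063047, minus strand: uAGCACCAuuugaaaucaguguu
Neat1, chr19:5842658-5842686, minus strand: tttggcttgaaTGGTGCTtaaaaaccatc
Neat1, chr19:5827946-5827974, minus strand: ctgttttgtttTGGTGCTggaatgaaacc
Kcnq1ot1, chr7:143262729-143262757, minus strand: tatggttgccaTGGTGCTacttactatcc
Kcnq1ot1, chr7:143203879-143203907, minus strand: caccgcttgcgTGGTGCTatatggtcctc
The motif TGGTGCT was searched on the transcribed strand of the longest annotated transcript of each gene (GENCODE M21, GRCm38). Neat1 held 2 matches in 20771 bases and Kcnq1ot1 held 9 in 93092 bases, of which the 2 shown are followed by an A, the base opposite the first base of the microRNA. Both densities, 0.0963 and 0.0967 sites per kilobase, were close to the 0.0982 of all 9932 long noncoding RNAs searched. Meg3 held 4 matches in 14548 bases, and Snhg1 and H19 held 1 each, in 2728 and 2286 bases. These densities, 0.275, 0.367 and 0.437 sites per kilobase, were above 0.0982 but rest on few matches. Malat1, Gas5, Snhg12, Epb41l4aos and Dleu2 did not hold the motif in the transcript searched. For Dleu2 that transcript is 1 exon of 4098 bases, while its deposited gene length is 11334 bases. Other spliced forms of these RNAs were not searched. Of 8769 windows of 1000 bases from all these transcripts, 9.58% held the motif. A match is a string of letters and was not tested as a site.

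The 10 RNAs differed widely in level per length, here in FPKM as the authors deposited it. Malat1 was highest at 78.2 ± 13.5 FPKM (SD over all 8 libraries), above Epb41l4aos at 37.9 ± 7.91 FPKM in every library with no overlap of ranges. Epb41l4aos, Neat1 and Gas5 followed in that order, but Neat1 at 23.7 ± 14.6 FPKM overlapped both, and it exceeded Gas5, at 22 ± 3.57 FPKM, in only 4 of 8 libraries. Snhg1 averaged 9.62 ± 1.91 FPKM and Snhg12 5.45 ± 0.809 FPKM, and each exceeded the next RNA in the order in all 8 libraries. Dleu2 averaged 0.978 ± 0.175 FPKM. H19, at 0.104 ± 0.138 FPKM, and Kcnq1ot1, at 0.0329 ± 0.0103 FPKM, overlapped, and Meg3 had 1 count over the 8 libraries together. The order depends on the deposited gene lengths. The length of Epb41l4aos is 430 bases, that of its spliced transcript, while those of Snhg1 and Snhg12 are the whole span of the gene. By counts, Malat1 ranked 2 and Neat1 ranked 3 among the 9959 long noncoding RNAs of the table. They came behind Xist, the RNA that coats the inactive X chromosome, which had 12120 to 22630 counts per library. Gas5 ranked 12 and Snhg1 ranked 30 by counts, both before Epb41l4aos, which ranked 47. All 10 together took 0.0842% to 0.161% of a library's counts.

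**Figure D1:**
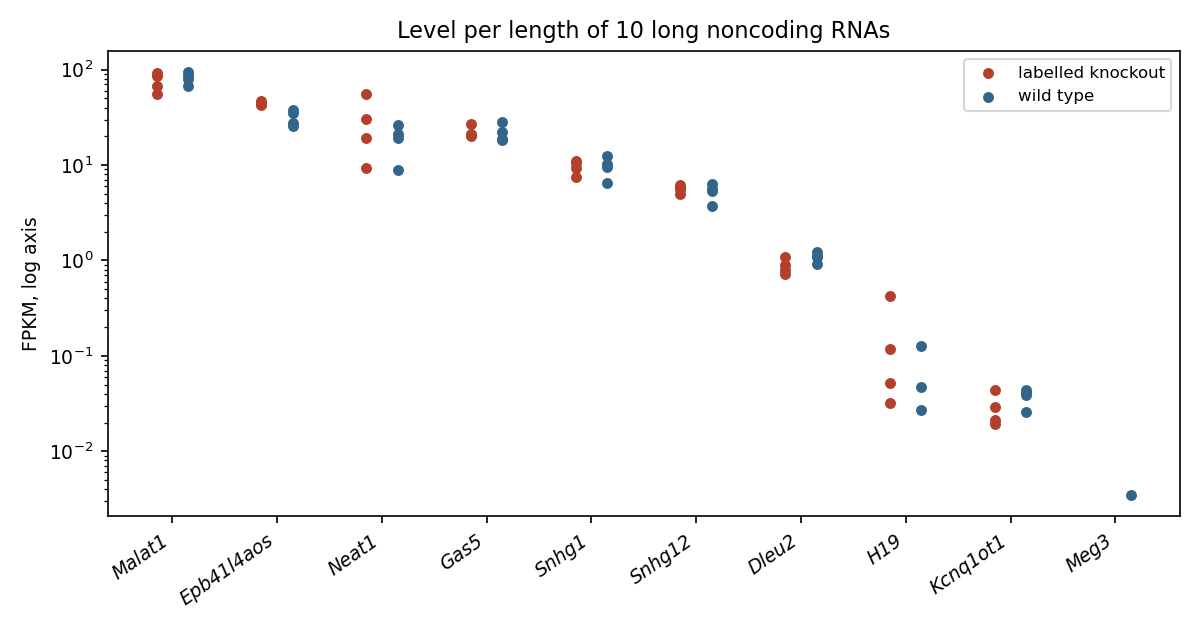
Level per length (FPKM, log axis) of the 10 long noncoding RNAs, ordered by their mean; each point is 1 library, labelled knockout left of wild type, and libraries at 0 (H19 in 1 wild-type library, Meg3 in 7 libraries) cannot be drawn on a log axis. Malat1 lies between 56.0 and 94.6 FPKM, and Kcnq1ot1 stays at or below 0.044 FPKM. The order depends on the deposited gene lengths, which cover the whole gene for Snhg1 and Snhg12 but only spliced exons for Epb41l4aos.

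None of the 10 RNAs passed the threshold between the groups after adjustment over all genes. 8 of the 10 passed the filter on low counts, and H19 and Meg3 did not. Across all genes, edgeR's quasi-likelihood test with Benjamini-Hochberg adjustment called 3 of 14897 genes, 0.0201% (Lncpint, Gm27019 and Cblif, all higher in the labelled knockout libraries), so 0 of 8 is near that background. Before adjustment, 1 of the 8 had a p under 0.05 in edgeR, Epb41l4aos, beside 2.7% of all genes (1.87% higher and 0.832% lower in the labelled knockout libraries). DESeq2 called 22 genes, 0.148% of those it tested (0.128% higher and 0.0202% lower), and limma-voom called 2, 0.0134%, and neither called any of the 8. The log2 fold change lay above 0 for 4 of the 8 and below 0 for the other 4, with a median of 0.0042, beside a median of 0.011 over all genes tested and 0.067 over the 915 long noncoding RNAs tested. The groups did not overlap for 1 of the 8, Epb41l4aos, higher in the labelled knockout libraries, beside 0.913% of all genes higher in that way (1.53% in either direction, 0.618% lower) and 2.19% of the long noncoding RNAs tested.

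**Figure D2:**
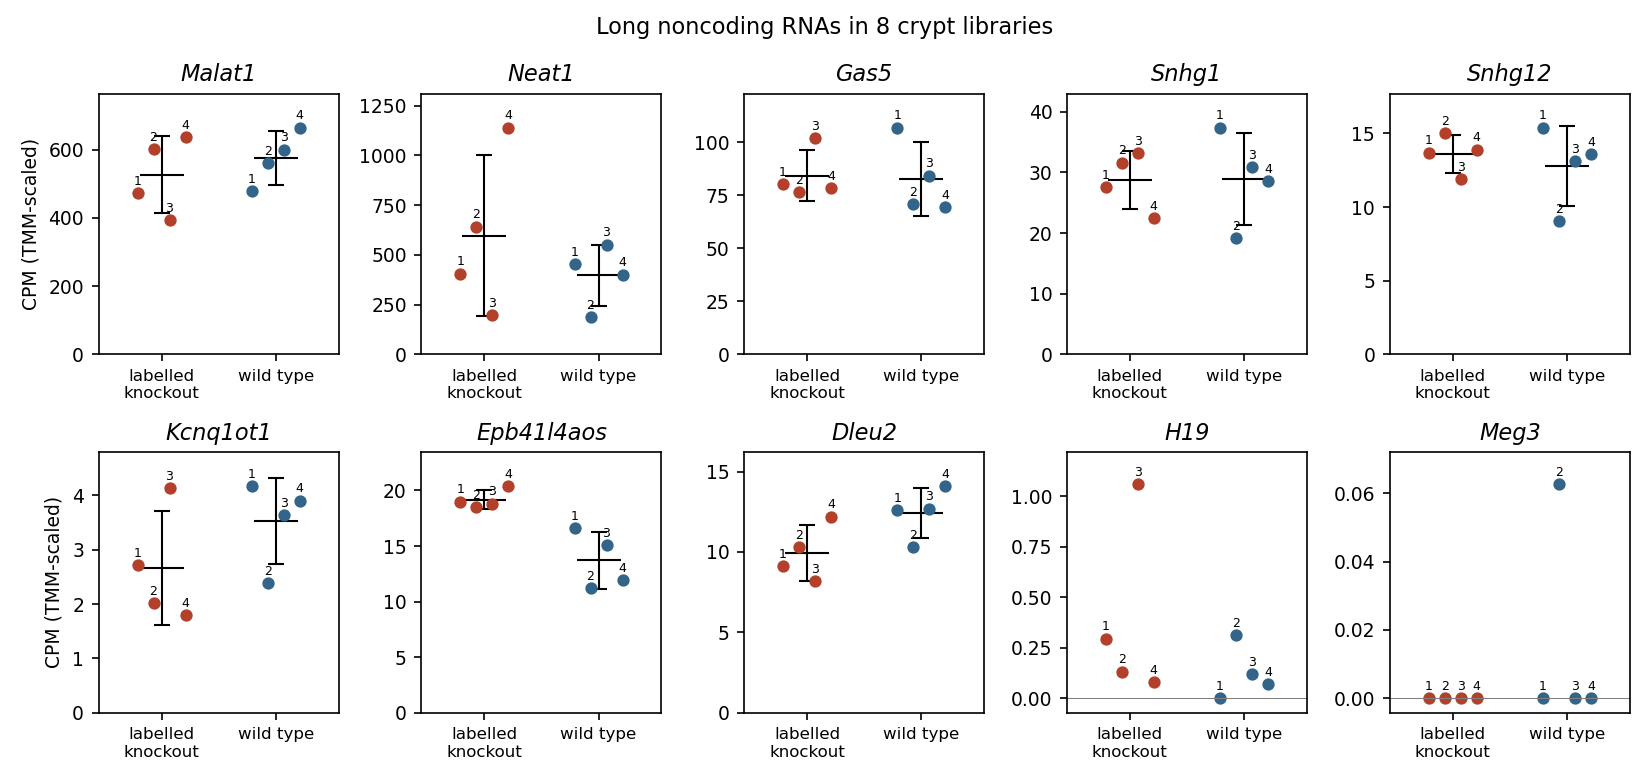
CPM of each RNA in each library (points, numbered by replicate), labelled knockout left of wild type, with the group mean and SD as bars except for H19 and Meg3, which have too few counts; each panel has its own linear axis. The 4 labelled knockout libraries lie above all wild-type libraries for Epb41l4aos, and the groups overlap in the other panels.

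Malat1 (ENSMUSG00000092341, chromosome 19, 5795690 to 5802672, minus strand, GRCm38) was at 472, 602, 394 and 637 CPM in labelled knockout replicates 1 to 4, against 478, 560, 600 and 665 CPM in wild-type replicates 1 to 4. Labelled knockout replicates 1 and 3 lay below every wild-type library and the other 2 lay within the wild-type range. Means were 526 ± 113 CPM in labelled knockout and 576 ± 78.5 CPM in wild type (SD, n = 4 each), and the log2 fold change by edgeR was -0.13 ± 0.20 (SE; adjusted p = 0.994). The 95% interval of the fold, a normal approximation from that SE, ran from 0.697 to 1.20. Leaving out labelled knockout replicate 4 gave a log2 value of -0.23, and leaving out replicate 3 of that group gave -0.014. Malat1 was the steadier of the 2 nuclear RNAs, with a 1.69-fold span from its lowest to its highest library.

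Neat1 (ENSMUSG00000092274, chromosome 19, 5824708 to 5845478, minus strand) lies 22035 bases from Malat1 and spanned 6.17-fold over the 8 libraries. It was at 406, 642, 196 and 1140 CPM in labelled knockout replicates 1 to 4, against 452, 185, 551 and 401 CPM in wild-type replicates 1 to 4. The highest value and one of the 2 lowest were both in the labelled knockout group, and the groups overlapped. The log2 fold change by edgeR was 0.59 ± 0.51 (SE; adjusted p = 0.994), an interval of 0.751- to 3.01-fold. Labelled knockout replicate 4 decided its size: without that library it was 0.063, and without labelled knockout replicate 3 it was 0.88. The short and long forms of Neat1, which differ in whether paraspeckles form, share their first bases and cannot be told apart in counts per gene. The ratio of Neat1 to Malat1 in FPKM was 0.289, 0.359, 0.167 and 0.603 in labelled knockout replicates 1 to 4, against 0.318, 0.111, 0.308 and 0.203 in wild-type replicates 1 to 4 (exact two-sided permutation p = 0.371, n = 4 each, on log2 ratios). That ratio, too, was highest in labelled knockout replicate 4, the library with the most enterocyte marker RNA. A part of cell makeup in the ratio was not tested.

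No mRNA of the listed protein partners of the 2 nuclear RNAs passed the test, and protein was not measured. Of 16 paraspeckle proteins tested, 0 passed the threshold, 2 lay above 0 and 14 below, with a median log2 fold change of -0.11 that was -0.028 without labelled knockout replicate 4. Pspc1, a paraspeckle core protein, was at -0.28 (SE 0.16) and Tardbp, the RNA-binding protein TDP-43, at -0.25 (SE 0.16), both with edgeR adjusted p = 0.994. Of 14 nuclear speckle proteins, 0 passed, 5 lay above 0 and 9 below, with a median of -0.027 that was -0.11 with total-count scaling. Pnn, pinin, was at -0.12 (SE 0.11) and Srsf3, a splicing factor, at -0.15 (SE 0.14). The 7 genes around Malat1 and Neat1 all lay above 0, with a median of 0.14 and none past the threshold, but without labelled knockout replicate 4 the median was -0.0081. Among them Frmd8 was at 0.17 (SE 0.18, edgeR adjusted p = 0.994). For Frmd8 the highest library was again labelled knockout replicate 4, at 155 CPM, where labelled knockout replicates 1 to 3 had 83.9 to 109 CPM, against 87.9 to 109 CPM in the wild-type libraries.

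The snoRNA hosts among the 10 are Gas5, Snhg1, Snhg12 and Epb41l4aos. Many host RNAs begin with a pyrimidine tract, the mark of RNAs whose translation follows growth signals. For the first 3 of these hosts the 50 bases around an annotated start (RefSeq, GRCm38.p6) are shown to place that tract; capitals mark a C followed by at least 4 pyrimidines that begins within 5 bases of the start, which lies after base 25.
Gas5, second listed start, chr1:161035141-161035190, plus strand: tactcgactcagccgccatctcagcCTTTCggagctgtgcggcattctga
Snhg12, chr4:132308653-132308702, plus strand: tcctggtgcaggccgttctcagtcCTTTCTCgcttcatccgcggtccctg
Snhg1, chr19:8723462-8723511, plus strand: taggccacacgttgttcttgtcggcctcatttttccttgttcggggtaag
Gas5 and Snhg12 held such a tract at the start shown, while Snhg1 and the first listed start of Gas5 did not. The tract was present at 18.5% of 27025 promoters, taking 1 start per gene symbol, and at 45.9% of 61 ribosomal protein genes.

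Gas5 (ENSMUSG00000053332, chromosome 1, 161034422 to 161038539, plus strand), an RNA that gathers in growth-arrested cells, was at 80.2, 76.4, 102 and 78.3 CPM in labelled knockout replicates 1 to 4, against 107, 70.8, 84.3 and 69.4 CPM in wild-type replicates 1 to 4. The labelled knockout range lay wholly inside the wild-type range. Its log2 fold change by edgeR was 0.021 ± 0.17 (SE; adjusted p = 0.996), with an interval of 0.811- to 1.27-fold. Its sign turned with total-count scaling, where it was -0.054. Gas5 overlaps Zbtb37 on the opposite strand over 428 bases, and Zbtb37 was at -0.13 on the log2 scale (SE 0.13).

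Snhg1 (ENSMUSG00000108414, chromosome 19, 8723475 to 8726443, plus strand) was at 27.6, 31.6, 33.2 and 22.5 CPM in labelled knockout replicates 1 to 4, against 37.4, 19.1, 30.9 and 28.5 CPM in wild-type replicates 1 to 4. Here too every labelled knockout library fell inside the wild-type range. The log2 fold change by edgeR was -0.013 ± 0.21 (SE; adjusted p = 0.998), and its interval was 0.748- to 1.31-fold. The sign turned to 0.019 with limma-voom.

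Snhg12 (ENSMUSG00000086290, chromosome 4, 132308623 to 132311024, plus strand) was at 13.7, 15, 11.9 and 13.9 CPM in labelled knockout replicates 1 to 4, against 15.4, 9.03, 13.1 and 13.6 CPM in wild-type replicates 1 to 4. Its labelled knockout libraries were again within the wild-type range. The log2 fold change by edgeR was 0.094 ± 0.18 (SE; adjusted p = 0.994), with an interval of 0.837- to 1.36-fold, and it was -0.0046 with total-count scaling.

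Epb41l4aos (ENSMUSG00000087590, chromosome 18, 33794892 to 33795986, plus strand) hosts 1 annotated snoRNA gene and was the RNA whose groups did not overlap. It was at 19, 18.5, 18.8 and 20.4 CPM in labelled knockout replicates 1 to 4, against 16.6, 11.2, 15.1 and 11.9 CPM in wild-type replicates 1 to 4. All 4 labelled knockout libraries lay above all 4 wild-type libraries, and they lay close together, with a coefficient of variation of 4.23% against 18.9% in the wild-type group. The mean was 19.2 ± 0.811 CPM in the labelled knockout group and 13.7 ± 2.59 CPM in the 4 wild-type libraries (SD), 1.40-fold (interval 1.14- to 1.72-fold). By edgeR this was 0.48 ± 0.15 on the log2 scale (SE), with an unadjusted p of 0.0110 that ranked 95 of 14897 genes and an adjusted p of 0.994. The exact two-sided permutation p was 0.0286, the smallest that 70 arrangements of 4 against 4 libraries can give, unadjusted among the 10 RNAs so tested. Because the 10 RNAs were chosen with earlier results of these data known, these p-values are not independent evidence. In the authors' deposited table the log2 fold change was 0.488 with an adjusted p of 0.704. By edgeR without labelled knockout replicate 4 the log2 value was 0.46, and it ran from 0.40 to 0.59 over the 8 fits that left out 1 library, with adjusted p from 0.576 to 1.00 over the alternatives in edgeR, DESeq2 and limma-voom. Total-count scaling gave 0.39 with an unadjusted p of 0.0766. Summed Paneth markers, at 44600, 61100 and 36000 CPM in labelled knockout replicates 1 to 3 and 20500 CPM in replicate 4, against 22000 to 27900 CPM in wild type, were also above every wild-type library in 3 of the 4, and their part in the result was not tested.

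Epb41l4a, the protein-coding gene read in the opposite direction, ends 340 bases from the end of Epb41l4aos, tail to tail, and its groups overlapped. It had 24, 49, 41 and 207 counts in labelled knockout replicates 1 to 4, against 38, 28, 63 and 23 counts in wild-type replicates 1 to 4. Only labelled knockout replicate 4 lay above the wild-type range. Its log2 fold change by edgeR was 1.32 ± 0.70 (SE; adjusted p = 0.994). Of the 7 listed neighbours of the 4 hosts, 0 passed, 4 lay above 0 and 3 below, with a median of 0.020 that was -0.046 with total-count scaling; Slc3a2, an amino acid transporter subunit beside Snhg1, was at 0.31 (SE 0.26).

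**Figure D3:**
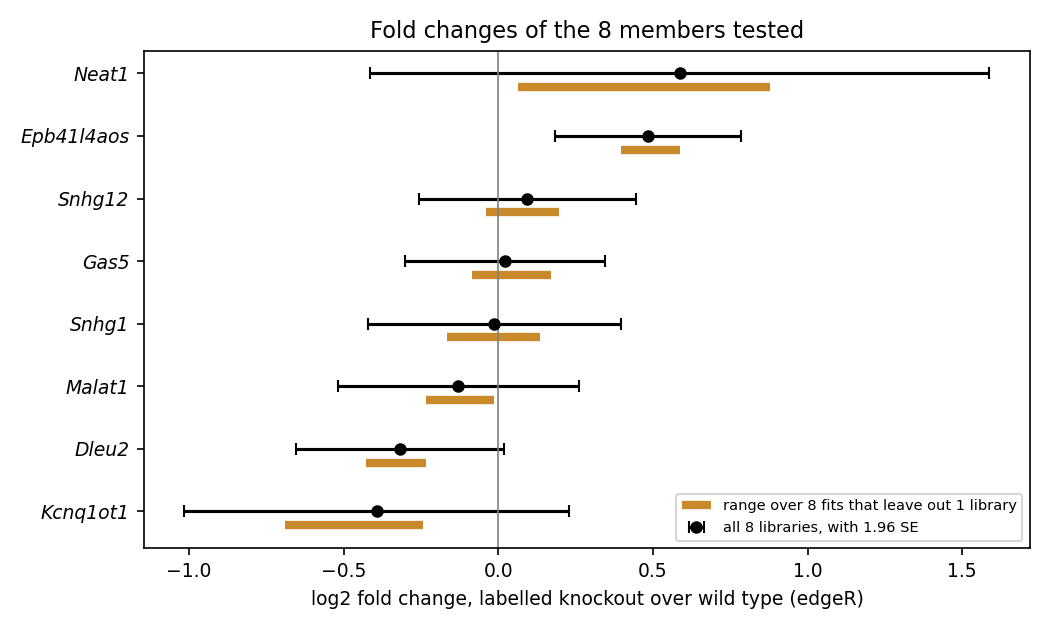
edgeR log2 fold change of the labelled knockout over the wild-type group for the 8 RNAs tested (points), with 1.96 SE to each side (thin bars) and the range over the 8 fits that leave out 1 library (thick bars). Only the thin bar of Epb41l4aos lies wholly above 0, from 0.18 to 0.78, and its adjusted p of 0.994 is past no threshold; the thick bar of Neat1 reaches down to 0.063.

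The snoRNA genes inside these hosts had almost no counts assigned to them. The 4 hosts contain 24 annotated snoRNA entries, 10 in Gas5, 8 in Snhg1, 5 in Snhg12 and 1 in Epb41l4aos. Snord80 in Gas5 and Snora16a in Snhg12 are each listed more than once, as overlapping entries, so there are fewer distinct snoRNAs. Only the last, Gm23639, had any count, with 4, 7, 3 and 1 in labelled knockout replicates 1 to 4, against 7, 0, 5 and 9 in wild-type replicates 1 to 4. The other 23 entries are listed at 0. Of all 1507 snoRNA genes in the table, 18.2% had a count, and together they took 0.00531% of all counts. For Snhg1 and Snhg12 the deposited gene length equals the whole span of the gene, so their snoRNA genes lie inside counted host sequence. The deposited length of Gas5, 3760 bases, covers most of its span, so some of its snoRNA sequence lies there too. How reads there were assigned is not known from the labels, so a 0 does not show that a snoRNA was absent.

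No host gene outside the 10 passed the test. Of 16 listed snoRNA hosts, 15 were in the table and 12 were tested. 0 passed the threshold, 7 lay above 0 and 5 below, and the median log2 fold change was 0.073, which was -0.0040 with total-count scaling, 0.21 without wild-type replicate 1 and -0.074 without wild-type replicate 2. Leaving out labelled knockout replicate 2 gave -0.019, and leaving out replicate 4 of that group gave 0.15. Zfas1 was at 0.26 (SE 0.22) and Snhg20 at 0.27 (SE 0.28), both with edgeR adjusted p = 0.994. Library by library, however, hosts shared highs and lows, a pattern described after the values were seen. Wild-type replicate 1 was the highest library for Gas5, Snhg1 and Snhg12 and for 6 of the 12 other hosts, beside 14.2% of all genes. Wild-type replicate 2 was the lowest library for Snhg1, Snhg12 and Epb41l4aos and for 6 of the 12 other hosts, beside 11.9% of all genes. Labelled knockout replicate 4 was the lowest library for 5 of the 12 other hosts, beside 29.1% of all genes. Among the 4 host members it was lowest for 0 and highest for Epb41l4aos. The median of the 12, as log2 CPM against each gene's mean over the 8 libraries, was 0.34 in wild-type replicate 1. It was -0.46 in wild-type replicate 2 and -0.245 in labelled knockout replicate 4.

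**Figure D4:**
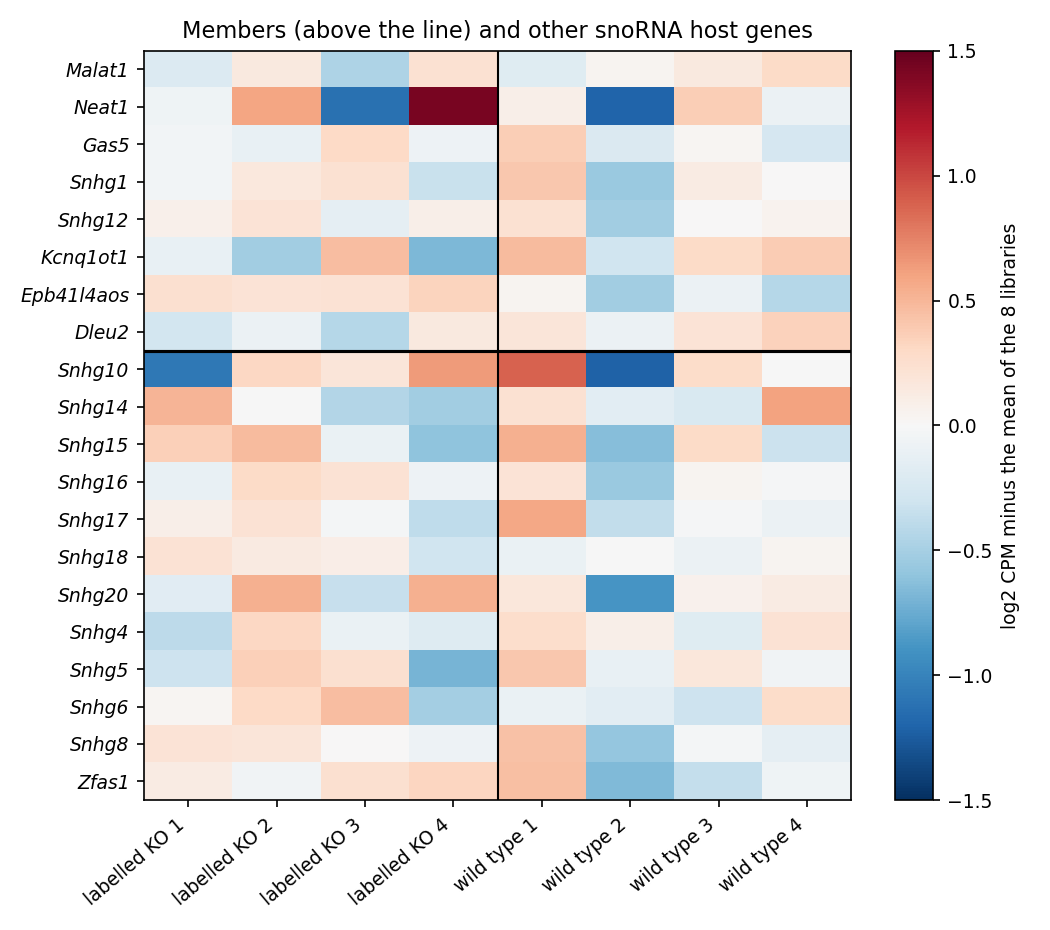
log2 CPM of each gene minus its mean over the 8 libraries (colour), for the 8 RNAs tested (above the line) and 12 other snoRNA host genes (below it), with labelled knockout libraries left of the line and wild-type libraries right of it. Wild-type replicate 2 is blue for most hosts, with a median of -0.46 over the 12, and Neat1 has the widest span.

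Genes that process or degrade host RNAs did not pass the test either. The mRNAs of all 12 snoRNP proteins, which bind snoRNAs or build snoRNA particles, lay below 0, with a median log2 fold change of -0.20 and 0 past the threshold. Nop58 was at -0.29 (SE 0.19) and Nolc1 at -0.27 (SE 0.19), both with edgeR adjusted p = 0.994. Their summed level was 738 CPM in labelled knockout replicate 4 and 1080 to 1410 CPM in labelled knockout replicates 1 to 3, against 1220 to 1490 CPM in wild type. Without that library the median log2 fold change was -0.052. The 12 proliferation markers lay the same way, with 12 of 12 below 0 and a median of -0.32 that was -0.12 without that library, and their part in the result was not tested. Of 14 nonsense-mediated decay factors, 0 passed, 6 lay above 0 and 8 below, with a median of -0.032 that was -0.11 with total-count scaling. Rbm8a was at -0.22 (SE 0.10) and Casc3 at 0.14 (SE 0.10), both exon junction proteins. Another 14 translation genes were listed by name as beginning with the pyrimidine tract, which was not checked gene by gene. Of these 14, 0 passed, 6 lay above 0 and 8 below. Their median was -0.015, and 0.084 without labelled knockout replicate 4. Nap1l1, a histone chaperone, was at -0.30 (SE 0.21) and Fau, a ribosomal protein fusion gene, at 0.15 (SE 0.14).

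Dleu2 (ENSMUSG00000097589, chromosome 14, 61602839 to 61682373, minus strand) is the host of the microRNAs miR-15a and miR-16-1, known as brakes on the cell cycle and on Bcl2. Their sequences (RefSeq, GRCm38.p6) share a seed, in capitals, that differs from the miR-29 seed AGCACCA.
mmu-miR-15a-5p: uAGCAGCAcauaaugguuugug
mmu-miR-16-5p: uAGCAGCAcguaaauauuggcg
Dleu2 was at 9.11, 10.3, 8.19 and 12.2 CPM in labelled knockout replicates 1 to 4, against 12.6, 10.3, 12.7 and 14.1 CPM in wild-type replicates 1 to 4. 3 of the 4 labelled knockout libraries lay below every wild-type library, replicate 2 by less than the rounding shown, and replicate 4 lay within the wild-type range. The mean was 9.97 ± 1.74 CPM in the labelled knockout group and 12.4 ± 1.54 CPM in the 4 wild-type libraries (SD). The log2 fold change by edgeR was -0.32 ± 0.17 (SE; adjusted p = 0.994), an interval of 0.635- to 1.01-fold, and the exact two-sided permutation p was 0.0571. Without labelled knockout replicate 4 it was -0.43, and without labelled knockout replicate 3 it was -0.23.

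Mir15a and Mir16-1 had 0 counts in every library, and mature microRNAs are not measured here. Dleu2 overlaps Trim13, a ubiquitin ligase gene, over 3108 bases and Kcnrg over 5370 bases, both on the opposite strand. The strand setting of the counting is not known from the labels, so reads there cannot be told apart. Gm27010, a long noncoding RNA on the same strand, lies within Dleu2 over 1412 bases, where strand could not separate reads. It was at -0.37 on the log2 scale (SE 0.27, edgeR adjusted p = 0.994). Trim13 had 26 to 48 counts in the labelled knockout libraries, against 32 to 53 in the wild-type libraries, and was at -0.13 on the log2 scale (SE 0.28). Of the 6 listed neighbours of Dleu2, 4 were tested and 0 passed, with 1 above 0 and 3 below and a median of -0.14. Kpna3, a nuclear import receptor, was at -0.24 (SE 0.18) and Spryd7 at -0.16 (SE 0.14).

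Kcnq1ot1 (ENSMUSG00000101609, chromosome 7, 143203458 to 143296549, minus strand), the paternally expressed RNA that silences its imprinted neighbours, had 37, 31, 70 and 23 counts in labelled knockout replicates 1 to 4, against 68, 38, 62 and 58 counts in wild-type replicates 1 to 4. On the CPM scale the labelled knockout libraries gave 1.80 to 4.13 and the wild-type libraries 2.38 to 4.17. Labelled knockout replicates 2 and 4 lay below every wild-type library, while replicate 3 was near the top. The log2 fold change by edgeR was -0.39 ± 0.32 (SE; adjusted p = 0.994), an interval of 0.495- to 1.17-fold. Without labelled knockout replicate 4 it was -0.24, and without labelled knockout replicate 3 it was -0.69. The whole RNA lies inside Kcnq1, a potassium channel gene on the other strand, so the 2 cannot be told apart where counting ignores strand. Kcnq1 had 1918, 1571, 2826 and 1121 counts in labelled knockout replicates 1 to 4, against 2765, 1847, 1694 and 2080 counts in wild-type replicates 1 to 4, and it shared the highest and lowest labelled knockout library with Kcnq1ot1.

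The genes in and beside the Kcnq1ot1 domain did not pass the test. Of 11 imprinted or adjoining genes of distal chromosome 7, 8 were tested and 0 passed, with 3 above 0, 5 below and a median log2 fold change of -0.047 that was 0.015 without labelled knockout replicate 4. Cdkn1c, an imprinted inhibitor of the cell cycle, had 67, 55, 49 and 20 counts in labelled knockout replicates 1 to 4, against 49, 43, 85 and 105 counts in wild-type replicates 1 to 4. Its log2 fold change by edgeR was -0.45 ± 0.41 (SE; adjusted p = 0.994), and Tssc4 was at -0.15 (SE 0.16).

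H19 (ENSMUSG00000000031, chromosome 7, 142575529 to 142578143, minus strand), the maternally expressed partner of the growth factor gene Igf2 and host of miR-675, was near the detection limit. It had 4, 2, 18 and 1 counts in labelled knockout replicates 1 to 4, against 0, 5, 2 and 1 counts in wild-type replicates 1 to 4. 1 library held most of them: the labelled knockout total of 25 fell to 7 without replicate 3, against 8 in the wild-type group. The exact two-sided permutation p on CPM was 0.314 (n = 4 each). Igf2 had 1, 5, 1 and 16 counts in the labelled knockout libraries, against 13, 4, 3 and 3 counts in the wild-type libraries, and its highest library was another than that of H19. The 10 markers of stroma and smooth muscle summed to 20.5 CPM in labelled knockout replicate 3, within the 11.6 to 68.5 CPM of the wild-type libraries. The 7 enteroendocrine markers were highest in that library, at 605 CPM, where the other 3 labelled knockout libraries had 222 to 380 CPM, against 304 to 479 CPM in wild type, and their part in the H19 counts was not tested.

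Meg3 (ENSMUSG00000021268, chromosome 12, 109541001 to 109571726, plus strand), a maternally expressed RNA, had 0 counts in every labelled knockout library, against 1 count in wild-type replicate 2 and 0 in the other 3 wild-type libraries. The 0 of 60286219 counts in the labelled knockout group allows up to 0.0498 CPM, by a floor of 3 counts for the group that covers counting error only. None of the 6 other genes of its imprinted domain passed the filter, and Dlk1, Rtl1 and Rian were at 0 in every library. A difference in Meg3 was not detectable at this depth.

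Other named long noncoding RNAs were also looked at. Of 29 listed, 26 were in the table and 16 were tested. 0 passed the threshold, 8 lay above 0 and 8 below, and the median log2 fold change was 0.033, which was -0.0032 without labelled knockout replicate 4 and -0.057 with total-count scaling. Peg13, an imprinted RNA, was at 0.58 (SE 0.21) and Firre, a nuclear RNA of the X chromosome, at 0.26 (SE 0.15), both with edgeR adjusted p = 0.994. Of 14 p53 targets, 0 passed, 10 lay above 0 and 4 below, with a median of 0.19. Trp53inp1 was at 0.94 (SE 0.17, edgeR adjusted p = 0.758) and Btg2 at 0.73 (SE 0.31, edgeR adjusted p = 0.994).

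The protein-coding genes most like each RNA over the 8 libraries were listed as a description, from 9379 genes compared by Pearson's r of log2 CPM. With so many genes and 8 libraries that share depth and cell makeup, these values carry no test. Neat1 was most like Anapc2 (0.98) and Dapk3 (0.978), Malat1 most like Micall2 (0.962) and Bcap31 (0.961), and Epb41l4aos most like Sfi1 (0.969) and Kctd20 (0.957). Snhg1 was most like Plk1 (0.973) and 2510002D24Rik (0.964), Snhg12 most like Rnf123 (0.975) and Tab1 (0.966), and Gas5 most like Zfp263 (0.964) and Ikbkg (0.956). Kcnq1ot1 was most like Zfp207 (0.957) and Mzt1 (0.955), and Dleu2 reached only 0.897 with Aifm2 and 0.869 with Fbxw2.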

How the data were processed

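The 8 crypt libraries were made from TRIzol RNA with a directional kit (labels' protocols). The authors deposited whole-number counts per gene. Per the submitters' processing notes, HISAT2 and DESeq2 were used, with no version stated. The program that counted reads, its strand setting and the build are not stated in the labels or headers. Coordinates matched GENCODE M21 (GRCm38) for 99.5% of 55144 shared identifiers. The deposited FPKM equal counts over gene length and library size factors, by a check of the values. The authors' normalised signal per group was left unused. Their deposited log2 fold change and p-value are printed only as the authors'.

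Genes were tested by edgeR 4.0.16 (R 4.3.3; quasi-likelihood with robust fit, TMM, filterByExpr), with Benjamini-Hochberg adjustment over all genes and a threshold of 0.05. The SE is the absolute log2 fold change over the square root of F, and log2 CPM carry a prior count of 2. The test was checked on simulated data. Other settings were RLE and total-count scaling, DESeq2 1.42.0, limma-voom (limma 3.58.1), no filter, 5 CPM or more in 4 libraries, the replicate block, exact permutation, and each library left out. 409 loci that the table places on the genome without a gene name, with 0.279% of all counts, stayed in. No 2 libraries of a group were alike within counting error, by a chi-square test of their counts.

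The 10 RNAs and the gene lists were chosen with earlier results of these data known. From each list other than the cell type markers, the text names the genes that passed, and where none did, the 2 with the lowest p. Cell type markers are given mainly as sums and medians, and those with the lowest p are not named. 1 gene that this rule names is not reported here. Likeness gives the 2 protein-coding genes with the highest r among tested genes with a mean log2 CPM above 3.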

Additional observations from a re-analysis of the deposited data

Results flagged for a closer look

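Gas5 in labelled knockout replicate 3 stood out from its group. It was at 102 CPM, where labelled knockout replicates 1, 2 and 4 had 76.4 to 80.2 CPM, and its gap to the nearest of them was 0.849 of the group's range, above Dixon's critical value at the 95% level. 18 groups of values were looked at in this way, and chance flags about 1 in 20. The value lies inside the wild-type range of 69.4 to 107 CPM.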

How the results depend on the processing

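None of the 8 RNAs tested passed the threshold under any of the 15 other fits, and the adjusted p in edgeR, DESeq2 and limma-voom stayed at or above 0.576; the unadjusted exact permutation p of Epb41l4aos was 0.0286. The number of genes called over the whole table was 22 with DESeq2 and 5 with no filter against 3, and between 2 and 3 with any 1 library left out. Neat1, Epb41l4aos, Dleu2, Kcnq1ot1 and Malat1 kept the sign of their log2 fold change under every alternative run. Gas5 was -0.054 with total counts and ran from -0.084 to 0.17 without single libraries. Snhg1 was 0.019 with limma-voom, 0.0092 with the replicate block and 0.011 as a difference of mean log2 CPM, and ran from -0.17 to 0.13 without single libraries. Snhg12 was -0.0046 with total counts and ran from -0.041 to 0.20 without single libraries. Total-count scaling shifted the median of all genes by -0.078. The replicate numbers did not pair the libraries, since the correlation of same-numbered deviations from the group means ran from -0.388 to 0.0745; with the replicate block 2 genes were called and none of the RNAs. Kcnq1ot1 was too low for the fit at 5 CPM. Of 275 list medians recomputed, 270 moved by less than the spread between replicates. Most of these fits left out 1 of 4 libraries of a group, which can hardly move a median that far. The count therefore says little about steadiness, and several list medians above changed sign. Counts of H19 and Meg3 are too low for any fold. The cause of each change above was not tested.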
